A study of Mus musculus with 2 samples.

Results

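The genes described here are those of the mouse major histocompatibility complex (MHC, named H2 in the mouse) and of antigen presentation, measured by total RNA-seq in whole lung at postnatal day 0. Members were chosen by name. They are the protein-coding genes of both deposited gene tables whose symbol begins with H2-, together with B2m, Tap1, Tap2, Tapbp, Tapbpl, Cd74, Ciita, Nlrc5, Psmb8, Psmb9, Psmb10, Erap1, Ctss, Cd1d1 and Mr1. This rule gave 49 genes, 34 with an H2- name and 15 others, of 43346 mouse genes and 21474 protein-coding genes. The study has 1 group of 2 libraries. A library represents 1 newborn pup of mouse strain B6NCrl, with its 2 lungs pooled and no treatment or allele named. The pups are numbered 1 and 3 and come from the same pregnancy number, their sex was not collected, and both carry the same donor identifier. The labels do not say whether that identifier marks an animal or a strain record, so each SD given with n = 2 measures the spread between these libraries. Each library started from 10 ng of RNA longer than 200 nt with spike-in RNA added. No condition was compared, so the questions were how strongly each gene was expressed, how class I compared with class II, and how far the pups differed. With 2 pups the smallest 2-sided p of an exact sign-flip test is 0.5, and no p-value was computed.

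MHC class I molecules pair a membrane heavy chain with the light chain beta-2 microglobulin (B2m). They show peptides cut in the cytosol by the proteasome to CD8 T cells, and most nucleated cells make them. MHC class II molecules pair an alpha with a beta chain. They show peptides from endosomes to CD4 T cells and are made mainly by dendritic cells, macrophages and B cells, and in lung also by alveolar type 2 cells, the surfactant-making cells of the epithelium. The transactivator Ciita switches on class II genes, and Nlrc5, a protein of the same family, acts on class I genes.

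The libraries held 42189536 expected counts in pup 1 and 37026165 in pup 3. Expected counts are estimated reads per gene, with a read that fits several genes divided between them. TPM is the count per length of transcript, scaled to the same total in each library, and genes were compared with each other in TPM only, except where counts are named. A count of 3, the upper limit that a count of 0 allows, corresponded to 0.0711 CPM (counts scaled to library size) in pup 1 and 0.0810 in pup 3. This limit covers counting error only. The tissue label was checked against lists of marker genes. All 5 alveolar type 2 markers, 4 of 4 endothelial markers and 10 of 10 macrophage markers reached TPM 1 in both pups, against 3 of 9 dendritic cell, 2 of 6 B cell and 0 of 5 T cell markers. Thymic tissue was also looked for, and of 4 thymic epithelial markers only Ccl25 reached TPM 1 in both pups, with Foxn1, Prss16 and Psmb11 at 0.01, 0.57 and 0.03 TPM in pup 1 and at 0, 1.07 and 0 in pup 3.

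Of the 49 members, 30 reached TPM 1 in both pups, which is 61.2% against 60.3% of all protein-coding genes. Another 9 lay under TPM 1 in both pups, and 10 had no count in either. The members at TPM 1 or more had a median of 16.1 TPM, next to 15.7 TPM for all protein-coding genes at that level. Summed over all members the level was 2046 TPM in pup 1 and 1914 TPM in pup 3, a mean of 1980 ± 93.3 TPM (SD, n = 2) or 0.198% of all transcripts. Between B2m at the top and H2-Q10 at the bottom of the 30, 13 of the 29 neighbouring pairs in the order of levels overlapped between the pups, so the order is settled by these pups only in part. In bulk tissue, fewer cells of a type and less RNA per cell cannot be told apart.

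**Figure D1:**
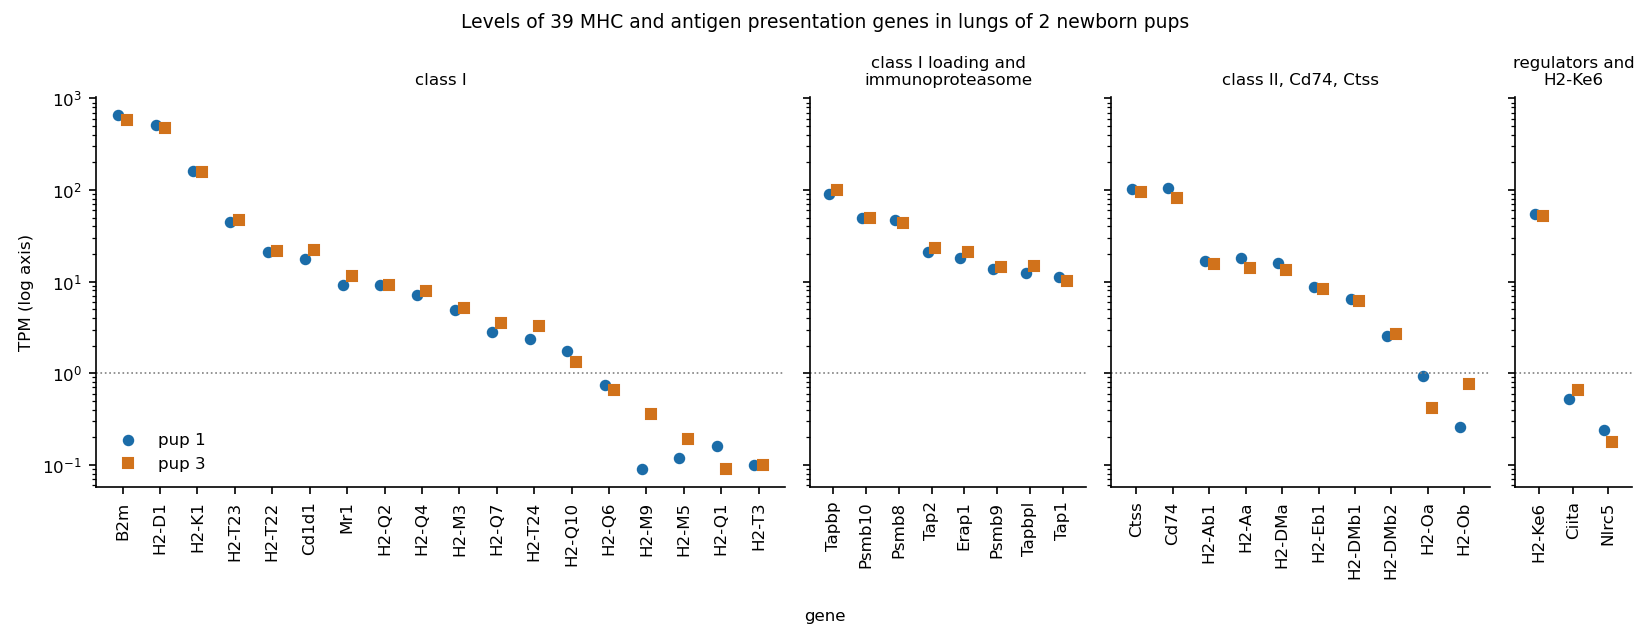
Level of each member with a count in both pups (TPM, log axis, circles for pup 1 and squares for pup 3), ordered within 4 groups by mean level; the dotted line marks TPM 1 and the 10 members at 0 in both pups are not drawn. B2m, H2-D1 and H2-K1 lay above every other member, and Ciita and Nlrc5 lay under TPM 1.

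B2m, the light chain shared by all class I molecules (chr2:122147686-122153083 on the plus strand, build mm10), was the most abundant member. Its level was 656 TPM in pup 1 and 579 TPM in pup 3, and it ranked 152 among protein-coding genes. H2-D1 and H2-K1 encode the classical class I heavy chains of this strain and stand at chr17:35262730-35267499 and chr17:33996017-34000347. H2-D1 was at 513 TPM in pup 1 and 471 TPM in pup 3. H2-K1 was at 160 TPM in pup 1 and 158 TPM in pup 3. The pups did not overlap between these genes, and H2-D1 exceeded H2-K1 by 3.20 times in pup 1 and 2.97 times in pup 3. Together H2-K1 and H2-D1 held 87.7% and 86.3% of the summed class I heavy chain level. B2m amounted to 0.854 and 0.794 times the sum of all heavy chains, 0.824 ± 0.0424 (SD, n = 2).

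The other class I genes of the complex lie in the Q, T and M regions of chromosome 17 and encode molecules that are mostly less variable and more specialised. In the T region, H2-T23 encodes Qa-1, a ligand of the NKG2A receptor of natural killer cells, and was at 44.5 TPM in pup 1 and 46.9 TPM in pup 3. H2-T22, a ligand of some gamma-delta T cells, was at 21.02 and 21.60 TPM. H2-T24 was at 2.36 and 3.26 TPM, and H2-T3, known from intestinal epithelium, was at 0.10 TPM in both. The region therefore summed to 67.9 TPM in pup 1 and 71.9 TPM in pup 3, most of it from H2-T23.

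In the Q region, H2-Q2 was at 9.15 and 9.13 TPM and H2-Q4 at 7.15 and 7.87 TPM. H2-Q7, which encodes Qa-2, was at 2.82 and 3.57 TPM, and H2-Q10, whose product is secreted and best known from liver, at 1.76 and 1.34 TPM. H2-Q6 at 0.75 and 0.66 TPM and H2-Q1 at 0.16 and 0.09 TPM stayed under TPM 1. In the M region, H2-M3, which presents formylated bacterial and mitochondrial peptides, was the single gene of 12 to reach TPM 1, at 4.86 and 5.20 TPM. H2-M9 and H2-M5 lay at or under 0.36 TPM. The other 9 genes of that region (H2-M1, H2-M2, H2-M10.1 to H2-M10.6 and H2-M11) had no count in either pup, and several of this family are known from sensory neurons of the vomeronasal organ. Outside the complex, the class I-like genes Cd1d1, which presents lipids to natural killer T cells, and Mr1, which presents vitamin B metabolites, were at 17.6 and 22.3 TPM and at 9.19 and 11.6 TPM. For these genes pup 3 was higher, and Cd1d1 exceeded Mr1 by 1.91 times in each pup. Over transcripts annotated as coding, Cd1d1 was at 8.90 and 12.9 TPM and Mr1 at 3.32 and 4.14 TPM.

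The genes that make and load class I peptides were all detected. Among the loading genes, Tapbp encodes tapasin, which bridges class I and the peptide transporter, and was at 90.2 TPM in pup 1 and 101 TPM in pup 3. The transporter's chains stood lower, Tap1 at 11.2 and 10.3 TPM and Tap2 at 21.03 and 23.05 TPM. Tapbpl, a tapasin-like peptide editor, was at 12.5 and 15.0 TPM, and Erap1, which trims peptides in the endoplasmic reticulum, at 18.3 and 20.9 TPM. Tapasin transcripts thus exceeded those of Tap1 by 8.09 times in pup 1 and 9.85 times in pup 3. The 3 general chaperones that assist loading (Calr, Canx and Pdia3) were at 278, 147 and 324 TPM in pup 1 and at 356, 164 and 363 TPM in pup 3.

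Psmb8, Psmb9 and Psmb10 encode the catalytic subunits of the immunoproteasome and take the places of Psmb5, Psmb6 and Psmb7 of the constitutive proteasome. Psmb8 was at 47.5 TPM in pup 1 and 44.1 TPM in pup 3. Psmb9 was at 13.9 and 14.3 TPM, and Psmb10 at 49.1 and 49.8 TPM. In every pair and in both pups the constitutive partner was higher. Psmb5 exceeded Psmb8 by 4.74 and 4.72 times. Psmb7 exceeded Psmb10 by 2.50 and 2.46 times. The widest gap was between Psmb6, at 444 and 399 TPM, and Psmb9, at 32.1 and 27.9 times. Psmb9 was therefore the scarcest of the 3 immunoproteasome subunits in both pups.

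**Figure D2:**
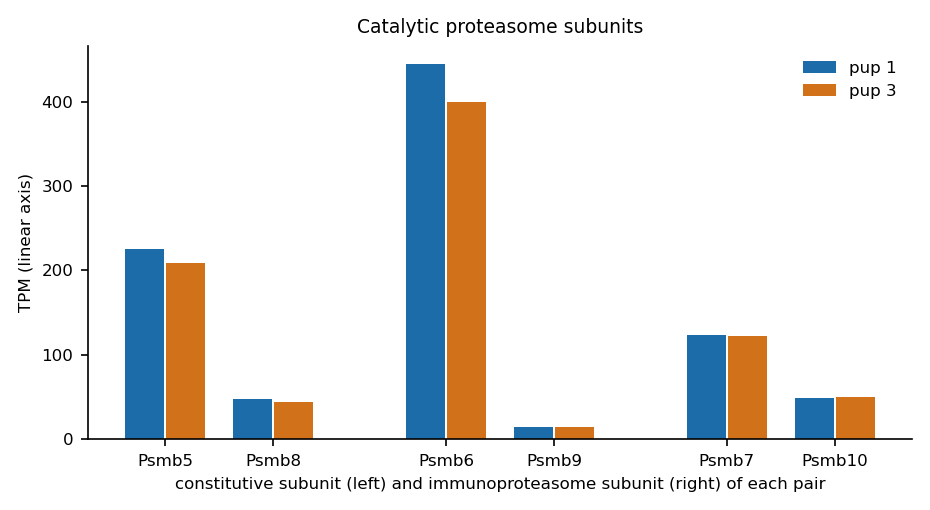
Level of the catalytic proteasome subunits (TPM, linear axis from 0) in pup 1 and pup 3, in pairs of a constitutive subunit and the immunoproteasome subunit that replaces it. Psmb5, Psmb6 and Psmb7 stood above Psmb8, Psmb9 and Psmb10 in both pups, most of all Psmb6 over Psmb9.

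Class II chains stood far below classical class I. H2-Aa and H2-Ab1 encode the alpha and beta chain of I-A, the class II molecule that this haplotype displays, at chr17:34282744-34287823 and chr17:34257689-34269419. H2-Aa was at 18.1 TPM in pup 1 and 14.0 TPM in pup 3. H2-Ab1 was at 16.8 and 15.6 TPM, and the pups overlapped between these genes, with a ratio of H2-Aa to H2-Ab1 of 1.07 in pup 1 and 0.897 in pup 3. H2-Eb1, the beta chain of I-E, was at 8.80 and 8.26 TPM. Its alpha chain gene, annotated as the polymorphic pseudogene H2-Ea-ps and so no member, was at 0 in both pups, and H2-Eb2 had no count.

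Among genes that act in the class II compartment, Cd74 encodes the invariant chain, which fills the groove of new class II molecules and guides them to endosomes. Cd74 was at 104 TPM in pup 1 and 82.0 TPM in pup 3, and exceeded the sum of H2-Aa, H2-Ab1 and H2-Eb1 by 2.38 and 2.16 times. Ctss, the protease that degrades the invariant chain, was at 101 and 96.0 TPM. H2-DM, which exchanges the last piece of the invariant chain for peptide, is made of H2-DMa (16.1 and 13.3 TPM) and a beta chain from H2-DMb1 (6.41 and 6.13 TPM) or H2-DMb2 (2.54 and 2.67 TPM). H2-O, which holds H2-DM back and is known chiefly from B cells, lay under TPM 1, with H2-Oa at 0.94 and 0.42 TPM from 30 and 12 counts and H2-Ob at 0.26 and 0.77 TPM from 20 and 37 counts. The transactivator Ciita was at 0.53 and 0.65 TPM from 88 and 92 counts. Nlrc5 was at 0.24 and 0.18 TPM, so both regulators stood below every member that reached TPM 1.

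Beside these, 6 of 6 other endosomal proteases and reductases were detected. Among them Ctsh, a cathepsin also known for processing surfactant protein in alveolar type 2 cells, was at 2176 and 1967 TPM, and the thiol reductase Ifi30 at 83.2 and 71.3 TPM. All 7 factors of the complex that binds class II promoters with Ciita were at TPM 1 or more, among them Rfx5 at 2.93 and 3.02 TPM. The macrophage markers summed to 200 TPM in pup 1 and 191 TPM in pup 3. The dendritic cell markers summed to 16.4 and 19.8 TPM, most of it from Zbtb46 alone at 9.83 and 13.04 TPM. The B cell markers summed to 14.6 and 16.5 TPM, most of it from Cd79b alone at 10.35 and 9.58 TPM. The alveolar type 2 markers, Sftpc above all, summed to 83191 and 74551 TPM. How much of the class II or Cd74 RNA came from each of these cell types was not tested.

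H2-Ke6 matches the name rule but encodes a steroid dehydrogenase and no MHC molecule. It was at 54.9 and 52.6 TPM and belongs to neither class below.

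Summed over the 24 class I heavy chain genes of the complex, the level was 768 TPM in pup 1 and 730 TPM in pup 3. Over the 9 class II chain genes (classical, H2-DM and H2-O) it was 70.0 and 61.2 TPM. Class I exceeded class II by 10.98 times in pup 1 and 11.9 times in pup 3, a log2 ratio of 3.52 ± 0.08 (SD, n = 2), so the gap was far wider than the spread between the pups. In expected counts, which are not per length, 41920 and 34153 counts for class I stood against 2433 and 1823 for class II, or 17.2 and 18.7 times (log2 ratio 4.17 ± 0.09, SD, n = 2). The gap rested largely on H2-D1. Without this gene, an alternative chosen after seeing the data, class I exceeded class II by 3.93 times. With B2m and the loading and immunoproteasome genes added to class I, and Cd74 and Ctss to class II, the ratio was 6.38.

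The mean of log2(TPM + 1) over the genes of each class gave the opposite order. Class I lay 0.62 ± 0.08 (SD, n = 2) below class II, because 14 of the 24 class I genes were under TPM 1 in both pups, against 3 of the 9 class II genes. Over the genes at TPM 1 or more, 10 of class I and 6 of class II, class I lay 0.71 above. Over the classical genes alone it lay 4.32 above. Which class was higher for the typical gene thus depended on whether the genes under TPM 1 were counted. The class I sum was set largely by H2-D1 and H2-K1.

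**Figure D3:**
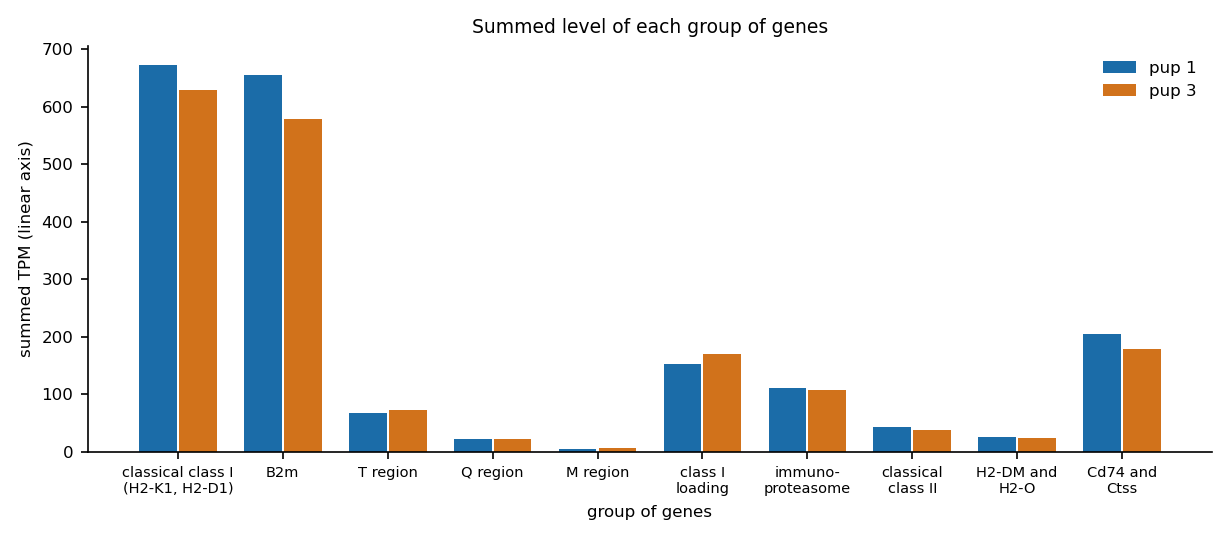
Summed level of each group of members (TPM, linear axis from 0) in pup 1 and pup 3. H2-K1 with H2-D1 reached 673 and 629 TPM, against 43.7 and 37.9 TPM for the classical class II chains; B2m stood at a similar height to the former.

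Promoter sequence was read for both classes, since transcription of class I, B2m and class II genes is known to run through a shared set of elements upstream of the start. Of the 49 members, 40 had an entry in the RefSeq promoter table (build GRCm38.p6, 250 bases before to 50 after each start). Cd74, Tap2, Cd1d1, H2-Ab1, Tapbpl, H2-T24, Ciita, Nlrc5 and H2-Q1 had none. A stretch of 110 bases upstream of the start is shown for a classical class I chain, its light chain and 2 class II chains. Each stretch was chosen to end shortly after the last ATTGG, a motif described below, on the gene's strand before the start. That match therefore stands at the same place in each stretch by choice. They lie at chr17:34000354-34000463 (minus strand), chr2:122147534-122147643 (plus), chr17:34287862-34287971 (minus) and chr17:34305708-34305817 (plus), the last overlapped by an exon of an antisense non-coding gene. Capitals mark every match to the motifs searched. In 5′ to 3′ order they read
H2-K1: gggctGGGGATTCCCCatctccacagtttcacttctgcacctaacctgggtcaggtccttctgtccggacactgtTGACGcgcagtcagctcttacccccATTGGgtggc
B2m: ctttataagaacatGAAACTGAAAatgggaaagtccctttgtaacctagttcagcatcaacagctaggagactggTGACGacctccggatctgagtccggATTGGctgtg
H2-Aa: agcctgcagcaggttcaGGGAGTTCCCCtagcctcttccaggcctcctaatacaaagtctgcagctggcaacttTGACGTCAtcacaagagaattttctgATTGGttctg
H2-Eb1: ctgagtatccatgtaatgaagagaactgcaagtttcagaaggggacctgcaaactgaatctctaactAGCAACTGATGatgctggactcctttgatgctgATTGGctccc

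The motifs were searched on both strands over all 32851 promoters of the table. A member was counted where any of its promoter entries matched, whereas the share over all promoters is counted per entry. A gene with several entries has more chances to match, so the member counts and these percents are in unlike units. The Y box core ATTGG, the CCAAT element bound by NF-Y, was found in 32 of 40 members, 19 of 22 class I and 8 of 8 class II genes, against 37.4% of all promoters. The cyclic AMP element core TGACG was found in 15 of 40 members, 11 of 22 class I genes and 1 of 8 class II genes, against 20.8%. In the H2-Aa promoter it matched on both strands, and these matches overlap. An X box core, searched as AGNAACNGATG, was found in H2-DMb1, H2-Eb1 and H2-Eb2 and in 0.298% of all promoters. The kappa B core GGGGANNNCCC was found in 6 of 40 members, among them H2-K1, H2-D1 and H2-Aa, against 1.72%, and the interferon response core GAAANNGAAA in 5 of 40, among them B2m, against 3.44%. The ATTGG match stood 16 bases before the start in H2-K1, 53 in B2m, 48 in H2-Aa and 59 in H2-Eb1. Sites that depart from the letters searched were not counted, so the lack of a match does not show that an element is absent. These matches are a description of letters and were not tied to the levels by any test.

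The transcript tables divide each gene's abundance among its annotated transcripts, as a percent of the gene. They were read for 17 members, of which Ciita has a single transcript in the tables, and the same transcript led in both pups in the other 16. Cd74 is known to give a short (p31) and a long (p41) invariant chain through 1 alternative exon. The transcript that encodes 215 residues took 82.5% in pup 1 and 82.8% in pup 3. The longer one, which encodes 279 residues through 192 further coding bases, took 17.5% and 17.2%. The shares of the forms differed between the pups by less than 1 percentage point.

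Transcripts annotated with a retained intron, which do not encode the protein, took a large share of several genes. For Tap2 a retained-intron transcript of 2561 bases took 85.4% in pup 1 and 82.6% in pup 3, and the coding transcript of 3442 bases took 14.6% and 14.2%. A further coding transcript, of 378 bases, was at 0 TPM in pup 1 and at 0.75 TPM in pup 3, from 5.72 counts. Counted by transcripts annotated as coding, Tap2 was at 3.08 and 4.01 TPM rather than 21.03 and 23.05. It then lay below Tap1, at 10.3 and 9.64 TPM by the same measure. The order of the transporter's chains therefore turned with this choice. Such transcripts took 43.8% and 47.6% of H2-DMa, and 49.4% and 42.3% of Cd1d1. Their share was at most 0.69% in H2-D1, 0 in Cd74, Ctss and H2-Aa, and at most 0.74% in H2-Ab1. These libraries hold total RNA, and how much of these reads came from unspliced RNA was not tested. In Tap2, 14.1% of the exonic bases also overlap an antisense gene, Gm15821, and whether the counting used strand is not given in the sources used here.

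**Figure D4:**
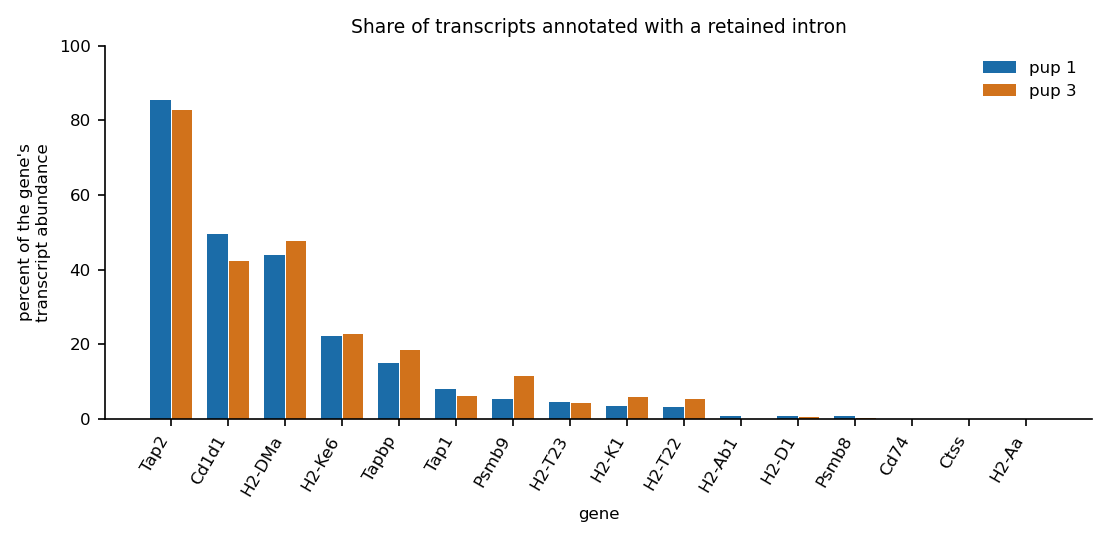
Share of each gene's transcript abundance given to transcripts annotated with a retained intron (percent, axis from 0 to 100) in pup 1 and pup 3, for the 16 genes with more than 1 transcript. Tap2 stood above 80% in both pups, Cd1d1 and H2-DMa between 42.3% and 49.4%, and all other genes drawn lower.

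Similar copies can share reads, so the transcripts were compared in windows of 100 bases. Only windows identical over all 100 bases were counted. Reads that are shorter, or placed with a mismatch, can be shared more widely than this count shows. Of the 49 members, 21 had at least 1 window in common with another gene, and 8 of the 30 at TPM 1 or more had over 10% in common. B2m, Cd74, Ctss, H2-Aa, H2-Ab1, H2-Eb1 and H2-DMa shared none. Classical class I shared little, 3.59% of the windows in H2-D1 (with H2-Q1, Gm7030 and H2-T23 above all) and 1.16% in H2-K1, none of them in its leading transcript. Larger shares stood in H2-T22 (31.5%, mostly with an antisense gene), Tapbp (16.3%, antisense Gm19412), H2-Q4 (14.0%), H2-Q7 (12.0%), H2-DMb1 (11.3%) and H2-DMb2 (11.8%, with each other) and Cd1d1 (10.5%, with Cd1d2). The levels of these genes are uncertain by what the authors' division of shared reads could move. H2-Ke6, at 63.8%, was the single member over 50%, shared with the read-through gene Gm20427. Exons of Psmb9 and Tap1 overlap by 212 bases on opposite strands. The authors' own posterior estimates of TPM lay, as means of the pups, between 0.981 and 1.04 times the values used here for all 30 detected members.

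For the comparison of the pups, 33 members reached 50 counts summed over the libraries, and their counts were scaled (TMM). A gene was said to differ where the ratio was at least 2-fold and its exact 95% binomial interval, which covers counting error only, left out 1. By this rule 1 member differed, against 1.4% of the 15790 genes compared. H2-Ob, the beta chain of H2-O, was counted 20 times in pup 1 against 37 in pup 3. It was 2.05 times higher in pup 3 (interval 1.16 to 3.73). The call stood at the edge of the rule. It was lost with spike-in scaling (log2 ratio of pup 1 to pup 3 of -0.88) and with a prior count of 2 (-0.97). On log2(TPM + 1) (-0.49) it could not be made, since H2-Ob lay under TPM 1 in both pups. Nor could it be made with a minimum of 200 counts, which H2-Ob does not reach. H2-Oa, with 30 and 12 counts, was too low to be compared. The B cell markers, summed above and none of them at 0, had enough counts in 5 of 6, of which 4 had the larger value in pup 3 and Cd79b in pup 1, and their part in the H2-Ob difference was not tested. At 1.5-fold the same single member passed, against 5.06% of all genes.

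Smaller differences were read from the intervals alone, an alternative chosen after seeing the data. The interval lay above 1, higher in pup 1, for 10 of 33 members, against 24.6% of all genes. It lay below 1, higher in pup 3, for 5 of 33, against 21.6%. The split depended on the scaling. With spike-in scaling 18 intervals lay above 1 and 2 below, against 48.3% and 7.72% of all genes, and with total counts 8 lay above and 7 below, against 19.0% and 27.8%. Single libraries were compared, not conditions. Of the 7 class II chains compared, 3 had intervals above 1 (H2-Aa, H2-DMa and H2-Ab1) and 1 below (H2-Ob), while those of H2-Eb1, H2-DMb1 and H2-DMb2 included 1. The widest ratios in favour of pup 1 among the 10 members were those of H2-Aa, Cd74 and H2-DMa. H2-Aa had 595 counts in pup 1 and 385 in pup 3, a ratio of 1.39 (1.22 to 1.59). Cd74 had 3874 and 2594 counts, a ratio of 1.35 (1.28 to 1.42). H2-DMa had 549 and 374 counts, a ratio of 1.32 (1.16 to 1.51). B2m, at 16107 and 12104 counts, had a ratio of 1.201 (1.17 to 1.23), and H2-D1, at 29759 and 23611 counts, one of 1.14 (1.12 to 1.16). H2-Ab1, Psmb8, Ctss, Tap1 and H2-K1 followed, with ratios from 1.07 to 1.14. On the other side, Cd1d1 was 1.27 times (1.16 to 1.40) and Mr1 1.19 times (1.08 to 1.32) higher in pup 3, followed by Tapbpl at 1.13 and Erap1 at 1.07.

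The median log2 ratio of pup 1 to pup 3 was 0.01 over the 11 class I heavy chains compared, 0.18 over the 7 class II chains and 0.01 over all genes. Spike-in scaling moved all ratios by 0.14 towards pup 1, and the medians became 0.15, 0.32 and 0.15. Of the 5 members with intervals below 1, Cd1d1 and H2-Ob then kept them. Those of Mr1 (ratio interval 0.837 to 1.02) and Tapbpl (0.894 to 1.08) came to include 1, as did that of Erap1, whose log2 ratio changed sign to 0.04. The groups of other genes that follow were read with TMM scaling only, and their ratios differed in size and direction. The 6 other endosomal proteases and reductases all had intervals above 1, and the 3 constitutive proteasome subunits likewise. The 3 loading chaperones all had intervals below 1. Over all genes 24.6% of intervals lay above 1 and 21.6% below. The genes of these 3 groups had 1724 or more counts in each pup. At such counts, intervals that cover counting error only left out 1 at ratios as small as 1.08 (Ctsd) and 0.972 (Canx). The macrophage markers had a median log2 ratio of 0.07, with 4 of 10 intervals above 1 and none below. The dendritic cell markers had a median of 0.46 over the 6 with enough counts, of which 4 had the larger value in pup 1, but no interval lay above 1 and 2 lay below. The B cell markers had a median of -0.69, with none of 5 intervals above 1 and 4 below, and the alveolar type 2 markers one of 0.13, with 3 of 5 above and 1 below. Their part in the class II ratios was not tested.

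**Figure D5:**
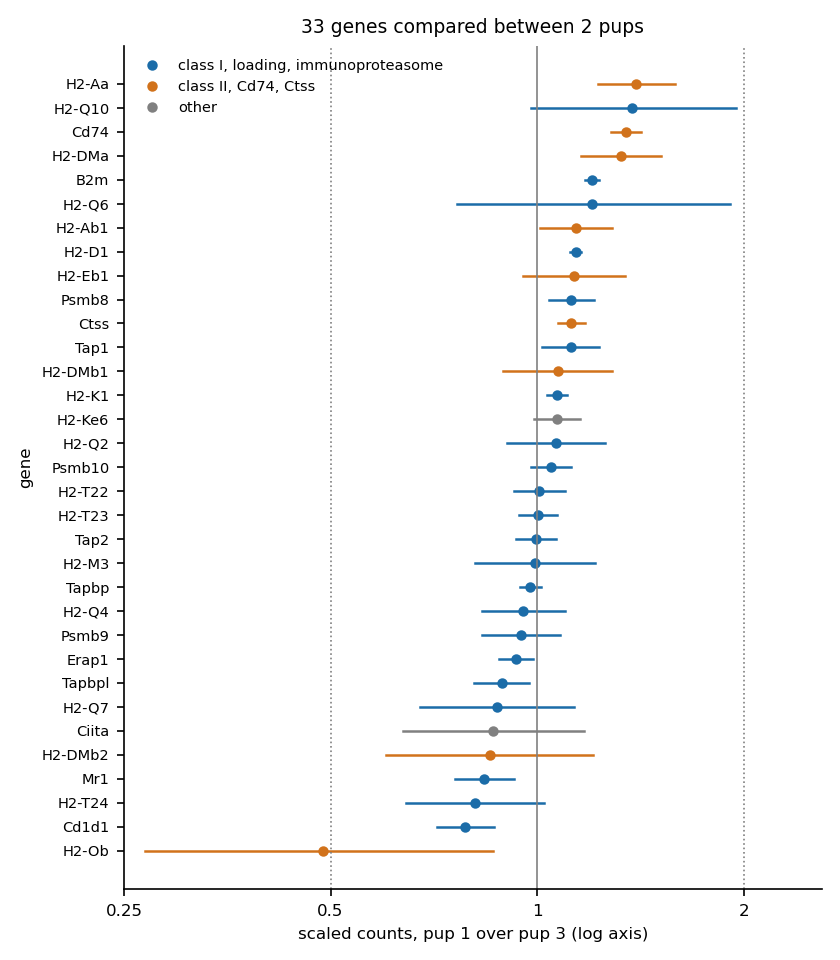
Ratio of scaled counts in pup 1 to pup 3 (log axis) for the 33 members with at least 50 counts; points are ratios, lines exact 95% binomial intervals of the counts, the solid line marks equality and the dotted lines 2-fold. H2-Ob lay past the 2-fold line, and H2-Aa, H2-Q10, Cd74 and H2-DMa stood highest in pup 1, with the interval of H2-Q10 including 1.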

How the data were processed

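Total RNA-seq of 2 mouse lung libraries was analysed from the gene and transcript tables deposited with each library. The deposited values were expected counts with their posterior means and SDs, TPM, FPKM and, per transcript, the percent of its gene. Per the deposited text files they were made on mm10 with annotation M4. For the aligner, the counting program and its strand setting, names and versions were not given in the sources used here. Expected counts, from 37026165 to 42189536 per library, were rounded for the comparison of the pups, scaled with TMM (edgeR 4.0.16 in R 4.3.3, DESeq2 1.42.0 size factors as an alternative) and given a prior count of 0.5. Levels are the deposited TPM. The labels put both libraries in 1 group, so no groups were compared and no paired fit was made.

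Symbols, gene types and positions came from annotation M21 (Python 3.11.15 with pandas 2.3.3, scipy 1.17.1 and matplotlib 3.10.9). Shared sequence was counted in windows of 100 bases over 101510 transcripts of M21 that are also in the tables. Every member at TPM 1 in either pup, or with 50 counts over both, is named. Transcript shares are given for members at TPM 10 or more in both pups with several transcripts, and for Cd74 and Ciita. The members and lists were chosen with earlier results of these data known. The ratio test was tested on simulated counts first. Alternatives covered scaling, count minimum, fold, prior count, pseudocount, posterior and FPKM values, gene choice and each pup left out.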

Additional observations from a re-analysis of the deposited data

How the results depend on the processing

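The summed TPM ratio of class I to class II kept its direction under every alternative run. With 2 pups, leaving 1 out returns the value of the other pup. The ranges given below for 1 pup left out therefore restate the values of the pups and are no further check. On the log2 scale it was 3.52, between 3.46 and 3.58 with 1 pup left out, 4.00 for classical genes only, 2.67 with partners and loading genes, and, chosen after seeing the data, 3.68 for protein-coding transcripts only and 1.97 without H2-D1. The expected count ratio (4.17) lay between 4.11 and 4.23 with 1 pup left out and was 4.70 for classical genes. The difference of mean log2(TPM + 1) was -0.62, between -0.68 and -0.56 with 1 pup left out. It was -0.51 on FPKM, -0.43 with partners and loading genes, -1.61 with a pseudocount of 0.1 and -0.50 for protein-coding transcripts only. It turned to 4.32 for classical genes and to 0.71 without members under TPM 1, since the genes near 0 are then left out. The members' share of all TPM (0.198%) lay between 0.191% and 0.205% with 1 pup left out.

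The count of members that differed between the pups was 1. It was 0 with spike-in scaling, on TPM + 1, with at least 200 counts and with a prior count of 2. It was 2 with at least 10 counts and with no filter on counts (H2-Oa and H2-Ob). When any size was taken it was 15 of 33, next to 7293 of 15790 genes (46.2%), so the members then stood close to the share of all genes. Over all genes the call was made for 221 of 15790, and for 83 of 15790 on TPM + 1. It was made for 70 of 13256 with at least 200 counts, 590 of 19103 with at least 10 and 701 of 43346 with no filter. Ratios of single members were read under the other scalings, TPM + 1, posterior mean counts and a prior count of 2. Of these 198 ratios, 183 kept their direction and side of the rule, 12 changed sign and 3 lost the call (H2-Ob). Posterior mean counts and the prior count moved most ratios little, for H2-D1 from 0.1858 to 0.1855 and 0.1858. The 183 therefore include many ratios with little room to change. Of the sign changes, 9 came from scalings that shift every gene alike and 3 from TPM + 1. No paired analysis was possible because there is 1 group. Genes with few counts (H2-Oa, H2-Ob, Nlrc5, the M region) are limited by depth, and 2 pups of 1 pregnancy number limit every SD.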

Other observations

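Genes around the pathway were described from the same lists. Of the interferon-stimulated genes, 8 of 11 reached TPM 1 in both pups, among them Iigp1 at 23.2 and 27.1 TPM and Irgm1 at 18.0 and 23.9 TPM, while Mx1 was at 0.12 and 0.19 TPM and Cxcl9 at 0.01 and 0 TPM. Cxcl10, a T cell attractant, had 14 counts in pup 1 and 76 in pup 3, a log2 ratio of -2.55. It was the single gene of the 9 compared to pass 2-fold, against 1.4% of 15790 genes, and its count in pup 1 was low. All 4 interferon receptor chains were detected, with Ifngr1 at 141 and 123 TPM, and the interferon response factor Irf1 was at 46.1 and 57.3 TPM.

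Among costimulatory genes, Cd40 was at 50.5 and 67.9 TPM, whereas Cd86 was at 2.27 and 1.65 TPM and Cd80 at 0.08 and 0.16 TPM. Other genes with a class I fold outside the complex were Fcgrt, the neonatal Fc receptor, at 115 and 113 TPM, Hfe, which acts in iron uptake, at 29.3 and 27.2 TPM, and Procr, the endothelial protein C receptor, at 7.96 and 8.62 TPM. Of 11 H2 names that are not protein-coding and so no members, H2-Q5 reached TPM 1 in both pups, at 1.22 and 1.57 TPM.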
